A study of Mus musculus with 8 samples.

Results

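The genes described here encode the lysosome of the phagocyte: 31 listed mouse genes for lysosomal membrane proteins, cathepsins, glycosidases and a lipase, lumenal cofactors, the regulator Tfeb and the proton pump. The members were taken from a list of gene names and are 31 of the 21887 protein-coding genes of RefSeq's table for GRCm38.p6 (the mm10 coordinates). A gene was counted as having a PU.1 site when the summit of a called peak fell inside the gene or no more than 10 kb from either end. All 31 genes were found in the table, and their windows held between 15 summits (day 0) and 256 summits (the library titled Day 12- 12).

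The lysosome is acidified by the vacuolar ATPase, a rotary proton pump with a membrane sector (V0) and a cytosolic sector (V1), and its acid hydrolases then digest protein, glycan and lipid. Macrophages and neutrophils use it to break down what they engulf, and CD68 and several cathepsins are abundant in mature macrophages. TFEB is a basic helix-loop-helix factor that drives many of these genes through an E-box element known as CLEAR. PU.1, an ETS-family factor encoded by Spi1, is required for macrophage development and binds a GGAA core.

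PU.1 chromatin immunoprecipitation was done in the mouse leukaemia line AML246 (acute myeloid), grown with IL-3, in which PU.1 is restored with doxycycline (Dox, 0.1 ug/mL from day 0) and lowered again by taking Dox away on day 12 of 24. The restoration libraries were untreated (day 0) and 4, 8 and 12 days on Dox, each from total viable cells. The 3 others were titled knockdown Day 12- 4, Day 12- 8 and Day 12- 12, but their treatment labels read 12 days of Dox in Cd11b-high viable cells, 4 days off Dox and 8 days off Dox, so they are called by title. An eighth sample, labelled 12 days off Dox, was not analysed here. Every library came from this 1 line, each title had 1 library, and no difference below could be set against replicate error or tested. The lists ran from 8043 sites at day 0 to 148415 in the library titled Day 12- 12, their sequencing depth was unknown, and a missing call does not show missing binding. Peak lists hold no RNA level, so neither expression of these genes nor the labelled cell type was checked.

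The letters at the gene starts are shown first, because the promoter windows with a day 12 summit differed in what they held. RefSeq promoter windows (250 bases before to 50 after each annotated start, GRCm38.p6) were available for 25 of the 31 genes, as 31 windows. Those of 11 genes held a day 12 summit. In order of day 12 score in the window, Laptm5, Lipa and Ctsc came first, and their windows all held the PU.1-type letters GAGGAAG on either strand. Npc2, next in that order, and the other 7 genes held none. The order depends on where the window ends. Atp6v1a scored 587 at day 12 from a summit 232 bases past its start, and Gusb 509 from one 115 bases past its start. Both scored above Lipa but lay outside the windows. The Gusb window held GAGGAAG and the Atp6v1a window did not. The 200 bases before the start are printed 5′ to 3′ along the gene, with capitals for GAGGAAG (or CTTCCTC, its other strand) and for the CLEAR-type letters TCACGTG (or CACGTGA). Lamp1 and Ctsd (window scores of 28.5 and 11.1 at day 12) were printed in place of Tfeb and Grn. Tfeb and Grn came next after Npc2 (121.7 and 45.1), and their windows with a day 12 summit held neither set of letters. The exchange was made after the values were seen, because Lamp1 and Ctsd held CLEAR-type letters in a window with a day 12 summit.
Laptm5, chr4:130913116-130913315, plus strand: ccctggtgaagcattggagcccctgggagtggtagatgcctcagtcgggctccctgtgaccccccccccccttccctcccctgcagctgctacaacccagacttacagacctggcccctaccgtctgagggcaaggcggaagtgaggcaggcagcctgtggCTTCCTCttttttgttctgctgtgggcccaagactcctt
Lipa, chr19:34527475-34527674, minus strand: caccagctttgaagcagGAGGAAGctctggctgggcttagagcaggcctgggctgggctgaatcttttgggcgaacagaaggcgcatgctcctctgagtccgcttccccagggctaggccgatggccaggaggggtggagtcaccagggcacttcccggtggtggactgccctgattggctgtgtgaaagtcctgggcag
Ctsc, chr7:88277885-88278084, plus strand: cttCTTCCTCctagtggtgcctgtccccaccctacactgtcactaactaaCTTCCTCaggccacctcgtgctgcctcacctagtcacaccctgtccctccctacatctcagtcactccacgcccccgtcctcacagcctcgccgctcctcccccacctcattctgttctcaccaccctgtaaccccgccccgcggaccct
Npc2, chr12:84773113-84773312, minus strand: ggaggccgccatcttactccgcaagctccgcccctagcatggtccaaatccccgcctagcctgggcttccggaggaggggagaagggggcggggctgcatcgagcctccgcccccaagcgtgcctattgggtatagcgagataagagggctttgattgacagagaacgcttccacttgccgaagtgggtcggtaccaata
Lamp1, chr8:13158961-13159160, plus strand: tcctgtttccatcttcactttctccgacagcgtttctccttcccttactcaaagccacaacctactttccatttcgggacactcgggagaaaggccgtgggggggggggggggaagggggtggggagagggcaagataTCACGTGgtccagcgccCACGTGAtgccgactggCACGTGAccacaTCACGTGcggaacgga
Ctsd, chr7:142387828-142388027, minus strand: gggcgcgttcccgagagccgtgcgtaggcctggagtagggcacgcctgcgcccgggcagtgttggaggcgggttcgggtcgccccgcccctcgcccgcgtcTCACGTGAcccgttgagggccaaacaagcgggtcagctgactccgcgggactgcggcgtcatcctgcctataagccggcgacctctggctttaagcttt

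In Laptm5 the day 12 summit lay 56 bases before the start and 17 bases from the first base of the GAGGAAG match. In Lipa and Ctsc the summits lay 49 and 58 bases before the start, and the matches were further off, at 134 bases in Lipa and 139 and 92 bases in Ctsc. GAGGAAG was found in 7 of the 31 member windows (22.6%), those of Ctsc, Ctsk, Ctss, Gla, Gusb, Laptm5 and Lipa, against 13.6% of all 32851 promoter windows. The windows of Ctsk, Ctss, Gla and Gusb held no day 12 summit, and that of Ctsk held none in any library. The Gusb match lay 38 bases past the start. That window held a summit at days 0, 4 and 8, in Day 12- 4 and in Day 12- 12. The bare ETS core GGAA was in 29 of 31 windows and in 96.0% of all windows, so it separated nothing. CLEAR-type TCACGTG was in 8 of 31 windows (25.8%), those of Atp6v0d1, Atp6v1a, Ctsa, Ctsd, Gaa, Gla, Lamp1 and Mcoln1, against 3.77% of all windows. Many of these genes are known to be driven through CLEAR, so that share was foreseeable and is no result about PU.1. Of the 8 genes only Lamp1 and Ctsd had a day 12 summit in the window. The E-box CACGTG, which every TCACGTG contains, was in 9 of 31 (29.0%), against 7.15%. Only Gla held both GAGGAAG and TCACGTG. In Lamp1, 4 separate CLEAR-type matches lay within the 62 bases before the start, and the day 12 summit fell on the first base of one of them. These are matches of letters in fixed windows and show no bound factor.

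At day 0 the share of lysosomal genes with a called PU.1 site was that of other genes of their length, and in each of the 6 other libraries it lay above that share. The share of all genes at the members' lengths was computed by averaging the share in each member's length decile. At day 0, 12 of 31 genes had a site (38.7%, exact 95% interval 21.9 to 57.8), against 36.8% of all protein-coding genes and 38.3% at these lengths. At day 4 the count was 30 of 31 (96.8%, 83.3 to 99.9), against 69.8% of all genes and 74.9% at these lengths.

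At day 8, 29 of 31 genes had a site (93.5%, 78.6 to 99.2), against 61.7% and 67.3%. At day 12 all 31 did (100%, 88.8 to 100), against 77.1% and 83.2%. The day 0 share thus lay 0.435 percentage points above its length-standardised background, while those at days 4, 8 and 12 lay 21.8, 26.2 and 16.8 points above theirs.

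In the library titled Day 12- 4, 17 of 31 genes had a site (54.8%, 36.0 to 72.7), against 34.8% of all genes and 38.4% at these lengths. In Day 12- 8 the count was 25 (80.6%, 62.5 to 92.5), against 61.8% and 66.5%, and in Day 12- 12 it was 30 (96.8%, 83.3 to 99.9), against 78.9% and 83.8%. The intervals cover counting over genes only. They contained the length-standardised share at day 0, in Day 12- 4, in Day 12- 8 and, closely, in Day 12- 12, and lay above it at days 4, 8 and 12.

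Long lists reach more genes, so each list was also cut to as many sites as day 0 had (8043, by score). The counts were then 16 of 31 at each of days 4, 8 and 12, against 25.5, 29.2 and 35.2% of all genes and 26.9, 31.8 and 40.2% at these lengths. At day 0 the list was already that short, so its 12 genes and 36.8% background were unchanged. Under the titles Day 12- 4, Day 12- 8 and Day 12- 12 the counts were 12, 14 and 17, against 31, 37.8 and 31% of all genes. The distance above the length-standardised share was thus 24.7 points at day 4, 19.8 at day 8 and 11.4 at day 12, and 4.46, 3.11 and 20.01 points in the 3 libraries titled knockdown. With these lists the intervals at day 0, day 12 (33.1 to 69.8), in Day 12- 4 and in Day 12- 8 contained the length-standardised share. The intervals lay above it at day 4 and, closely, at day 8 and in Day 12- 12 (36.0 to 72.7, against 34.8%). In Day 12- 8 the direction turned with a score of at least 20, at which 4 of 31 genes (12.9%) had a site, against 15.6% of all genes and 18.2% at these lengths.

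**Figure D1:**
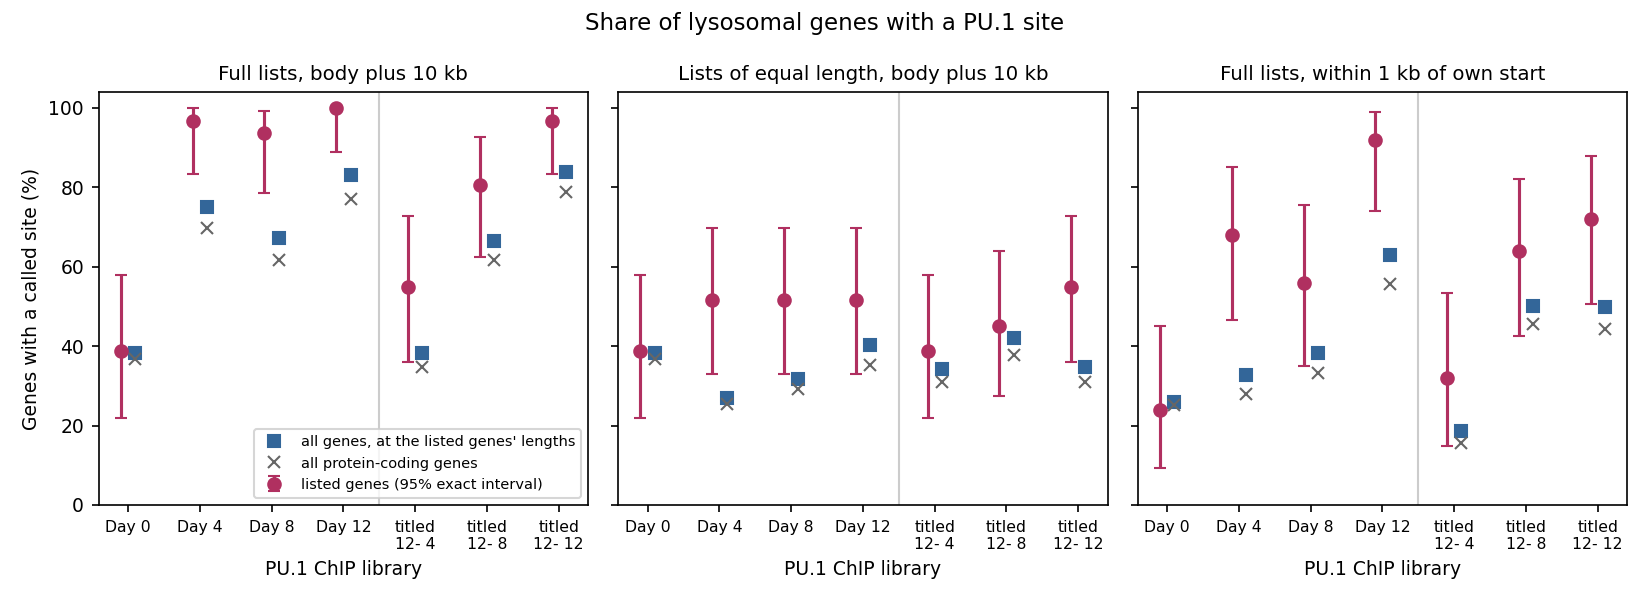
Percent of genes with a called site (vertical axis) in each of 7 libraries (horizontal axis), for the 31 lysosomal genes (circles, exact 95% interval), all protein-coding genes averaged at the same lengths (squares) and all protein-coding genes (crosses). Left, full lists: 38.7% at day 0 sits on the squares and 96.8, 93.5 and 100% at days 4, 8 and 12 sit above them. Centre, the 8043 highest-scoring sites of each list. Right, sites within 1 kb of an annotated start of the gene, for the 25 genes with one.

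The median of the members' highest scores, with a gene lacking a site ranked lowest, followed the same order against all genes. It was 65.5 at day 4, against 15.6 for all genes and 19.0 for genes weighted to the members' lengths. At day 8 it was 36.5 against 11.5 and 14.6, and at day 12 it was 86.9 against 33.4 and 48.1. In Day 12- 8 the members' median of 7.13 was close to the length-weighted 7.07. In Day 12- 12 it was 21.1 against 12.6, and at day 0 and in Day 12- 4 most of all genes had no site, so no background median could be given. Scores are the authors' and were taken to be −log10 q-values, and they are used to rank sites within a list, not to measure a change between libraries.

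Near the genes' own starts the share again lay above that at these lengths in each library except day 0, when it lay close. At day 0, 6 of 25 genes with an annotated start had a site within 1 kb of it (24.0%, 9.36 to 45.1). That compared with 25.1% of the 17492 genes with a start and 25.9% at these lengths. At day 4 the count was 17 (68.0%, 46.5 to 85.1), against 27.9% of all such genes and 32.8% at these lengths. At day 8 it was 14 (56.0%, 34.9 to 75.6), against 33.2% and 38.4%, and at day 12 it was 23 (92.0%, 74.0 to 99.0), against 55.5% and 62.9%. Ctsk and Ctss, neighbours on chromosome 3 whose windows overlap, were the 2 without one at day 12. Under the titles Day 12- 4, Day 12- 8 and Day 12- 12 the counts were 8, 16 and 18 of 25 (32.0, 64.0 and 72.0%), against 15.7, 45.6 and 44.3% of all such genes and 18.7, 50.2 and 49.9% at these lengths. The intervals at day 8, in Day 12- 4 and in Day 12- 8 contained the length-standardised share. Lists of 8043 sites left the day 0 count as it was and lowered the others. The counts were 6 of 25 at day 0 (against 25.1% of all such genes), 7 at day 4 (6.49%), 6 at day 8 (13.3%) and 8 at day 12 (20.9%). For Day 12- 4, Day 12- 8 and Day 12- 12 they were 6 (14%), 9 (24.8%) and 6 (14.7%). The shares at these lengths were 25.9, 7.84, 15.5 and 24.8% at days 0, 4, 8 and 12. They were 16.9, 28.6 and 17.5% in the libraries titled knockdown. With these lists only the day 4 interval (12.1 to 49.4) lay above its length-standardised share, and the others contained theirs.

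**Figure D2:**
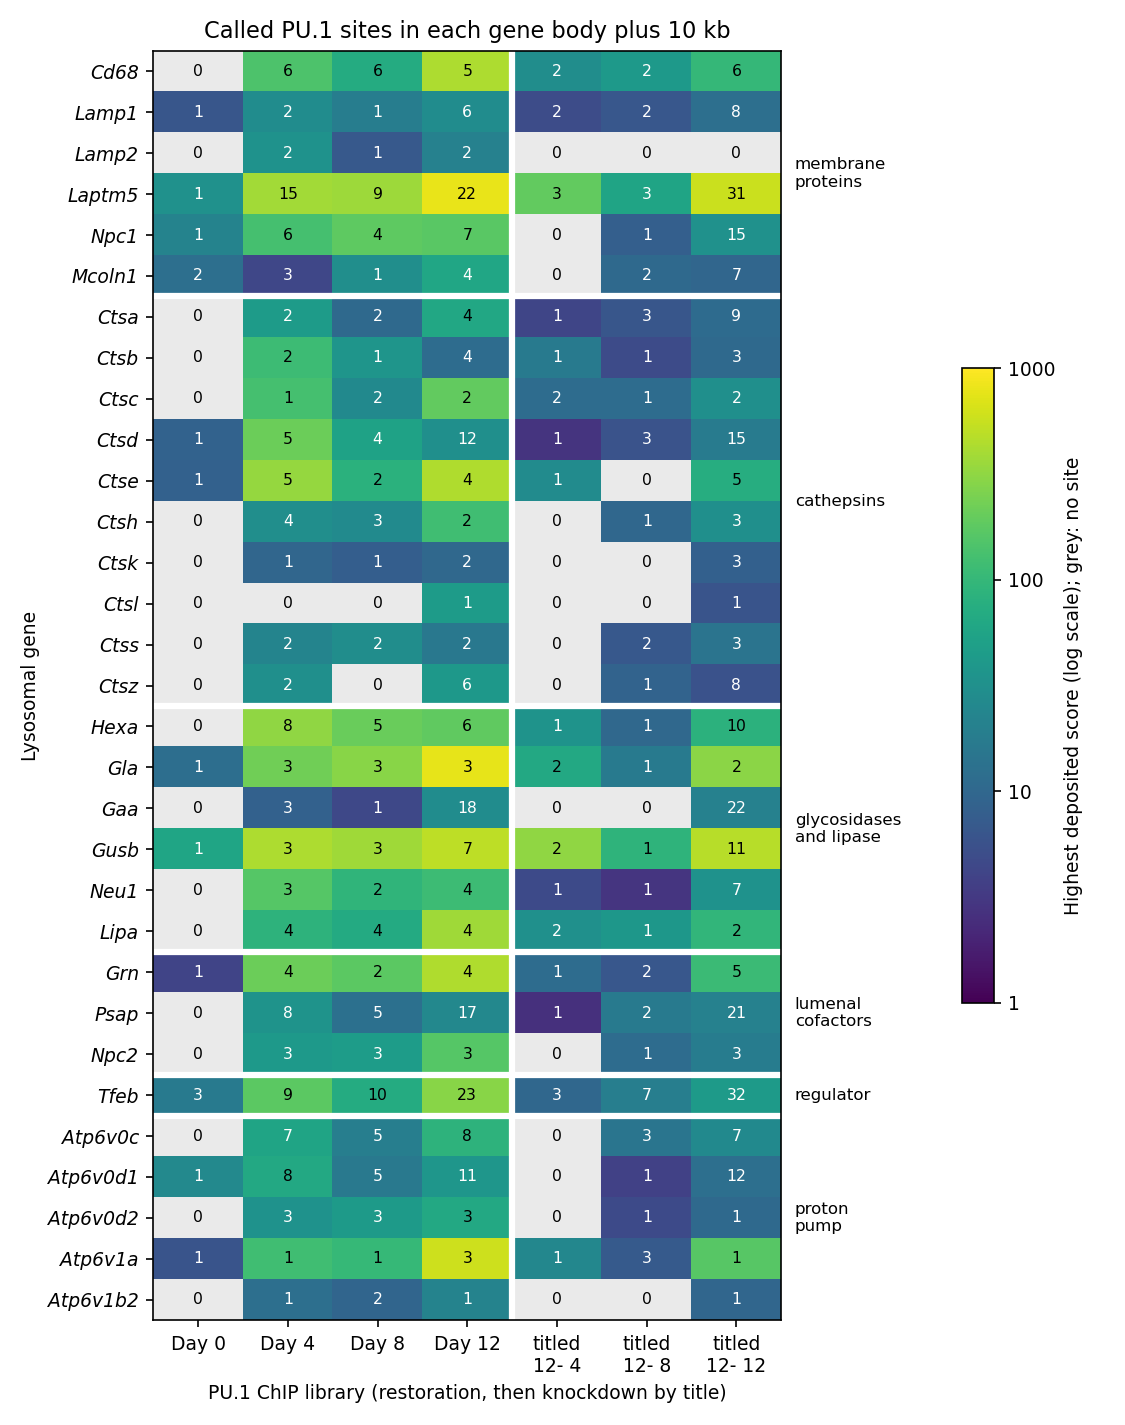
The 31 lysosomal genes (rows, grouped by role) in 7 libraries (columns). Colour gives the highest deposited score in the gene body plus 10 kb on a log scale, grey means no called site, and the number in each cell is the count of sites; 19 rows are grey at day 0 and none at day 12.

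Among the membrane proteins, 4 of 6 genes had a day 0 site and all 6 had one at days 4, 8 and 12, against 37.8% of genes of these lengths at day 0 and 73.8, 66.4 and 82.1% later. With lists of 8043 sites the count was 3 of 6 at each of days 4, 8 and 12, against 26.8, 31.2 and 39.6%. Laptm5 encodes a lysosomal transmembrane protein of blood cells that limits receptor signalling. Its highest scores were 33.1 at day 0 and 389, 365 and 798 at days 4, 8 and 12, then 189, 56.1 and 583 under the titles Day 12- 4, Day 12- 8 and Day 12- 12. All 7 values came from a single promoter site (chromosome 4, 130913251 to 130913274), whose summits lay within 24 bases of each other. By best day 12 score Laptm5 ranked 34 of the 21887 genes. Laptm5 had the most sites of any member at day 4 and came after Tfeb at day 12, with 1 at day 0, 15, 9 and 22 at days 4, 8 and 12, and 3, 3 and 31 in the libraries titled knockdown.

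Cd68, the macrosialin used as a macrophage marker, had no day 0 site. Its highest scores were 147 at day 4, 70.7 at day 8 and 428 at day 12, and 29.4, 40.9 and 100.3 under the titles Day 12- 4, Day 12- 8 and Day 12- 12. They did not come from 1 place. The day 4 value was from a site 16 bases inside the gene start (chromosome 11, 69665982 to 69666154), which scored 12.6 at day 8 and 21.6 at day 12 and was called in Day 12- 12 at 3.18. The day 12 value was from a site 6374 bases before the start and 121 bases from Eif4a1, a translation factor gene. A further site (69662689 to 69662798), 3470 bases past the start and beyond the gene's other end, lay 42 bases from the gene Mpdu1 by its day 8 summit. It was called in all 6 libraries except day 0 and scored 294 at day 12.

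Lamp1 and Lamp2 encode the major glycoproteins of the lysosomal membrane, and the highest score of either in any library was 33.7. Lamp1 had a site in all 7 libraries, with scores of 6.39 at day 0, 28.7 at day 4 and 28.5 at day 12 and of 4.98 to 12.6 in the libraries titled knockdown. They did not come from 1 place. The summit lay 338 bases past the start at day 0, 10782 bases past it at day 4 and 28 bases before it at day 12. The Lamp1 summit at day 12 was the one at its CLEAR-type letters, printed above, and no other library had a summit in that promoter window. Lamp1 scored above 47.8% of genes at day 12, 70.2% at day 0 and 61.3% at day 4, with genes lacking a site counted as below it. Since 36.8% of all genes had a site at day 0, 69.8% at day 4 and 77.1% at day 12, these percentages cannot be compared between libraries. Lamp2 had sites at days 4, 8 and 12 (33.7, 6.83 and 20.6) and was the only member with no site in any of the 3 libraries titled knockdown.

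Npc1, the membrane cholesterol exporter mutated in Niemann-Pick disease, scored 21.8 at day 0 and 129, 182 and 173 at days 4, 8 and 12. A single site inside the gene (chromosome 18, 12230198 to 12230222) gave the last 3 values and 33.1 in Day 12- 12, and the day 0 site was another one. Mcoln1, a calcium channel of the lysosome, scored 12.6 at day 0 and 4.41, 30.2 and 59.99 at days 4, 8 and 12. Its start site (chromosome 8, 3500554 to 3500678) was called at days 0, 8 and 12 and in the libraries titled Day 12- 8 and Day 12- 12, but not at day 4. At day 4 another site within 1 kb of the start was called, and the highest score was from a site inside the gene Pnpla6. Neither Npc1 nor Mcoln1 had a site in Day 12- 4.

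The cathepsins, proteases of the lysosome, numbered 2 of 10 with a site at day 0, then 9, 8 and 10 of 10 at days 4, 8 and 12. The libraries titled knockdown gave 5, 7 and 10 of 10, against length-standardised shares of 38.9, 66.0 and 84.0%. Genes of these lengths had one in 37.7% of cases at day 0 and in 75.0, 67.7 and 83.8% at days 4, 8 and 12. With lists of 8043 sites only day 4 lay above the length-standardised share, at 4 of 10 against 27.1%. The counts were then 3 of 10 at days 8 and 12 (against 31.8 and 40.4%) and 3 of 10 under each knockdown title (against 34.8, 42.4 and 35.3%). Their scores spread widely. Ctse, an aspartic protease of immune cells, scored 8.49 at day 0 and 339, 81.6 and 442 at days 4, 8 and 12, then 28.2 and 74.2 in Day 12- 4 and Day 12- 12, with no site in Day 12- 8. All of these came from a single site inside the gene (chromosome 1, 131658093 to 131658170).

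Ctsc activates the granule serine proteases of neutrophils and lacked a day 0 site. Its scores were 130.1, 26.2 and 192 at days 4, 8 and 12, and 11.6, 11.4 and 31.6 in the libraries titled knockdown. Here the highest site moved with the library. A site 688 bases before the start (chromosome 7, 88277360 to 88277402) gave the day 4 and day 8 values and scored 23.6 at day 12. The day 12 value was from the site 58 bases before the start, which was not called at day 4. Ctsd, the main aspartic cathepsin, scored highest at day 4, at 212, from a site 2582 bases before the start that scored 53.3 at day 8 and 31.3 at day 12. Within 100 bp it was called in no library titled knockdown, but Day 12- 4 and Day 12- 12 had a neighbouring site (142390169 to 142390248, against a day 12 summit at 142390386). Ctsd had 12 sites at day 12 and 15 in Day 12- 12.

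Of the cysteine cathepsins, Ctsb scored 115 at day 4 and 11.6 at day 12, Ctsh 30.1 and 121, and Ctss, which trims the invariant chain of antigen-presenting cells, 22.5 and 15.8. The 2 values came from different positions in Ctsb (chromosome 14, 63131895 and 63123873) and in Ctsh (chromosome 9, 90076374 and 90054449). Ctsz scored 31.2 at day 4, had no site at day 8 and scored 40.2 at day 12, from another position than at day 4. Ctsk, the collagenase of osteoclasts, never exceeded 10.3 in any library, and its best day 12 site lay inside the neighbouring gene Arnt. Ctsl had a site in 2 libraries only, 195 bases past its start, at 44.9 at day 12 and 5.94 in Day 12- 12. The serine carboxypeptidase Ctsa, which protects neuraminidase, had its best day 12 site inside Zswim1, at 63.4.

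The 6 genes for glycosidases and the acid lipase had a median best score at day 12 of 279.9, against 163 for the 3 cofactors, 116.5 for the 6 membrane proteins, 65.3 for the 5 pump subunits and 42.6 for the 10 cathepsins. That median counts the Gla value described below, whose site lay nearer to another gene. Gusb, β-glucuronidase, scored 57.8 at day 0 and 424, 370.2 and 509 at days 4, 8 and 12, then 321, 88.2 and 479.5 in Day 12- 4, Day 12- 8 and Day 12- 12. All 7 values were from a merged site at its start (chromosome 5, 130002836 to 130003013), whose day 12 summit lay 115 bases inside the gene. Lipa, lysosomal acid lipase, had no day 0 site and scored 375 at day 12, 32.2 in Day 12- 4, 38.5 in Day 12- 8 and 93.5 in Day 12- 12, all from a merged site at the start printed above (chromosome 19, 34527414 to 34527535). It scored 76.0 at day 4, when a site inside the gene reached 87.7, and 68.6 at day 8.

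Gla, α-galactosidase A, scored 12.0 at day 0 and 222, 293 and 768 at days 4, 8 and 12, then 63.8, 17.1 and 297. These values were from a site 2572 bases beyond the end of the gene and 57 bases from Rpl36a, a ribosomal protein gene (chromosome X, 134585538 to 134585627). No library had a summit inside the Gla body, so the Gla values cannot be told apart from those of Rpl36a. Near the Gla start the libraries differed in position. A site 140 bases before it scored 146 at day 4 and 8.53 in Day 12- 4. Another, 306 bases before it, scored 109.6 at day 12 and was also called at day 8 and in Day 12- 12. Together with the sites at Laptm5 and Gusb, the Rpl36a site was 1 of 3 in member windows called in all 7 libraries.

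Hexa, the α subunit of β-hexosaminidase, had a site about 2 kb beyond its end (chromosome 9, 59567346 to 59567374) that scored 314, 204 and 185 at days 4, 8 and 12, 34.7 in Day 12- 4 and 85.5 in Day 12- 12. Neu1, the sialidase, had a site inside the gene at 161 at day 4 and 90.7 at day 8 that was not called at day 12 (chromosome 17, 34934966 to 34935017). A neighbouring Neu1 site about a kilobase away (34933964 to 34934008) instead scored 12.7, 20.7 and 112.5 at days 4, 8 and 12. Gaa, α-glucosidase, scored at most 29.1, yet had 18 sites at day 12 and 22 in Day 12- 12.

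Grn encodes progranulin, a growth factor precursor that is cut into granulins in the lysosome. Its highest scores were 4.14 at day 0 and 214, 175 and 434 at days 4, 8 and 12, then 11.4, 6.54 and 111. The values at days 4, 8 and 12 and in Day 12- 4 and Day 12- 12 were from a site inside the gene, 1907 bases past the start (chromosome 11, 102432205 to 102432414). The day 0 and Day 12- 8 values were from sites beyond the end of Grn and inside the gene Fam171a2. Npc2, the soluble partner of Npc1, had no day 0 site, and its start site scored 5.004, 45.2 and 163 at days 4, 8 and 12 and 11.4 and 18.4 in Day 12- 8 and Day 12- 12. Psap, the precursor of the saposins, had 17 sites at day 12, none above 25.4.

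Tfeb had the most sites of any member at day 12, with 3 at day 0, 9, 10 and 23 at days 4, 8 and 12, and 3, 7 and 32 in the libraries titled knockdown. Its highest scores were 16.9 at day 0 and 176, 70.4 and 295 at days 4, 8 and 12, then 10.0, 19.0 and 43.5. The values at days 4 and 8 and in Day 12- 4 came from summits inside the gene at 47766812 to 47766817 (chromosome 17). Other recurring Tfeb sites fell to different libraries. Those at 47737046 to 47737098 and 47738373 to 47738463 (chromosome 17) were both called at days 0, 8 and 12 and in Day 12- 8, and neither at day 4. A site further inside the gene (47754404 to 47754453) was called at days 4, 8 and 12 and in Day 12- 12, at 65.1, 50.7, 295 and 43.5, and not at day 0.

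**Figure D3:**
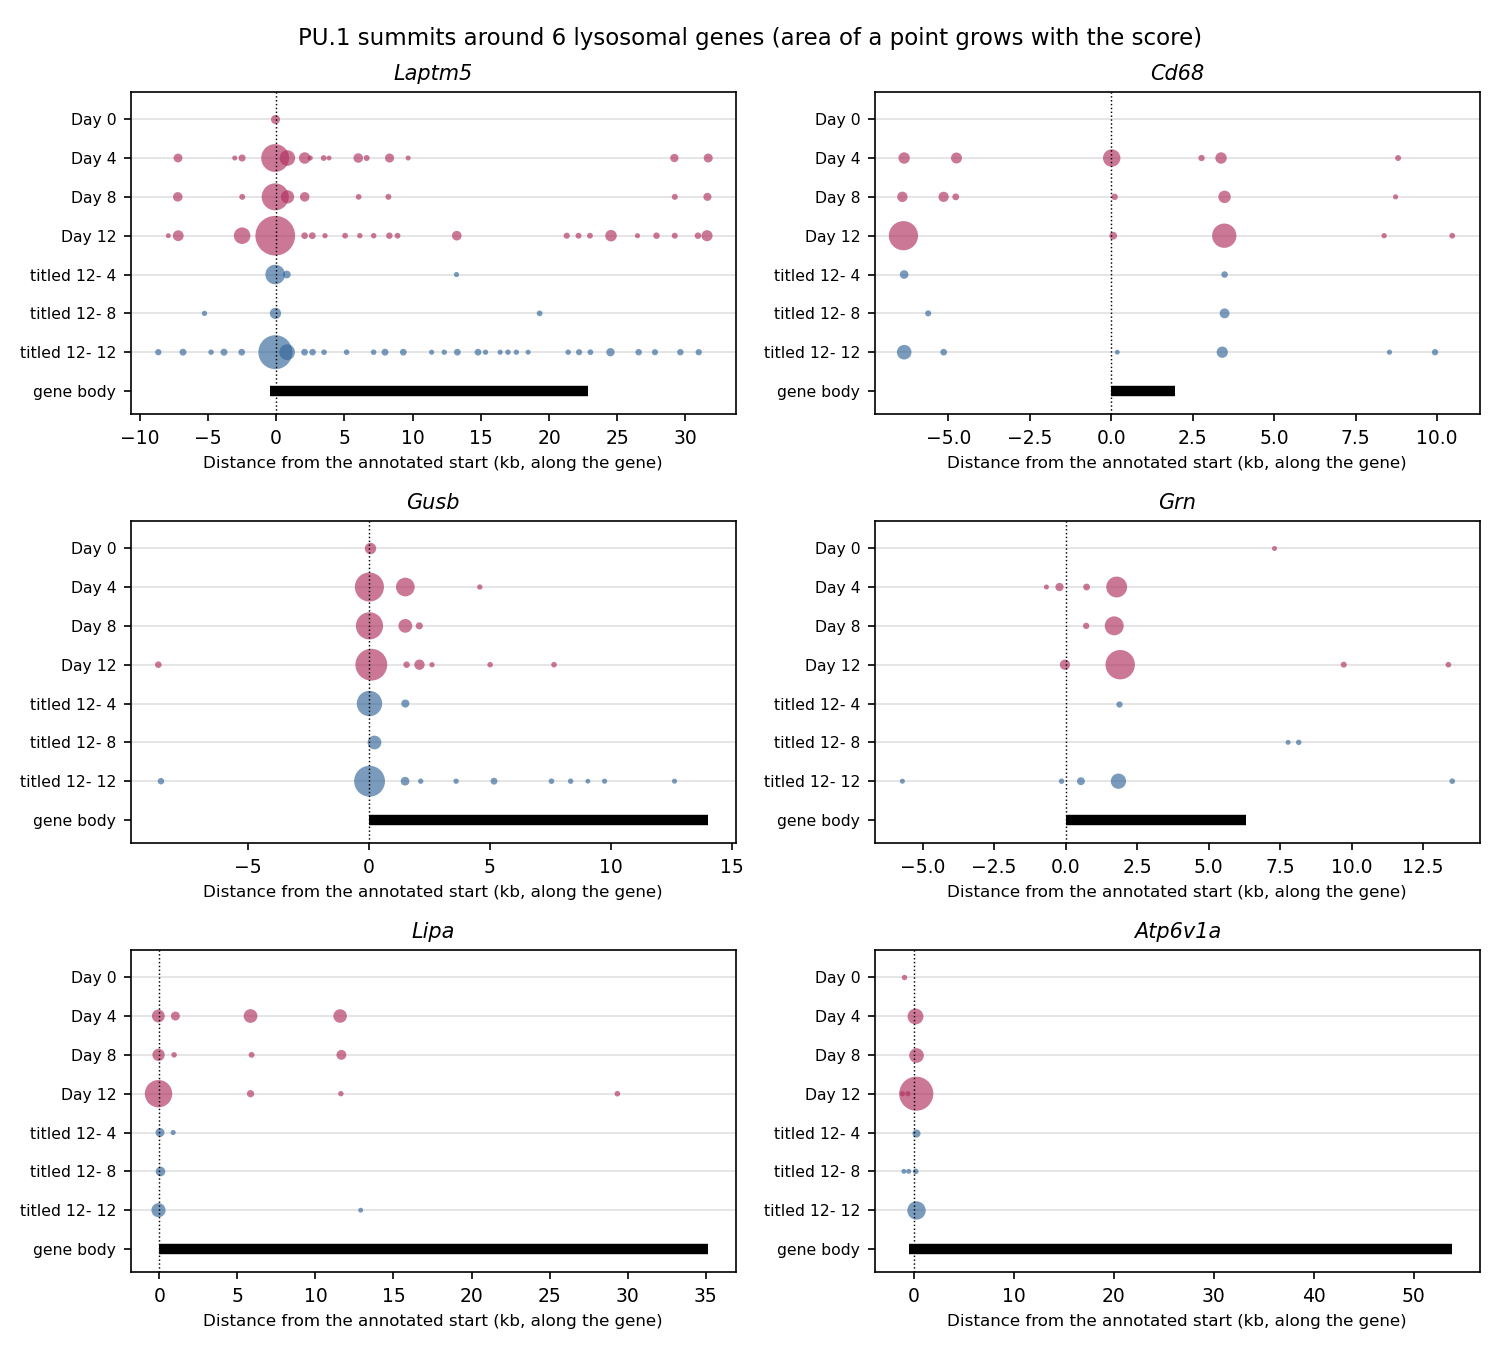
Summits around Laptm5, Cd68, Gusb, Grn, Lipa and Atp6v1a, by distance from the annotated start in kb along the gene (horizontal axis) and by library (rows, restoration in red and knockdown titles in blue); the area of a point grows with its score and the black bar is the gene body. Laptm5 and Gusb carry a point at the start in every library, whereas Cd68 has no point at day 0 and its largest day 12 point lies 6374 bases before the start.

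The proton pump had a site in 2 of 5 genes at day 0 and in all 5 at days 4, 8 and 12, against 41.7% of genes of these lengths at day 0 and 76.5, 69.4 and 84.4% later. In Day 12- 4, Day 12- 8 and Day 12- 12 the counts were 1, 4 and 5, against 37.9, 68.4 and 85.4%. With lists of 8043 sites they were 2 of 5 at days 4, 8 and 12, against 28.3, 33.0 and 39.5%, and 1, 1 and 2 under the knockdown titles, against 33.7, 41.5 and 33.6%. Atp6v1a, the catalytic A subunit of the V1 sector, had the highest day 12 score of the 5. It scored 6.08 at day 0 and 119.5, 101.2 and 587 at days 4, 8 and 12, then 24.5, 7.13 and 165, and ranked 314 of 21887 genes by best day 12 score. Apart from the day 0 value these were a merged site at the gene start (chromosome 16, 44139027 to 44139115), whose day 12 summit lay 232 bases past the start and 764 bases from the neighbouring gene Naa50. The day 0 site lay 978 bases before the start, inside Naa50.

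Atp6v0c, the proteolipid ring subunit, scored 86.9 at day 12 from a site inside the neighbouring gene Amdhd2, and a site 40 bases before one of its annotated starts scored 27.4. Atp6v0d1 scored 26.0 at day 0 and 65.5, 16.5 and 37.8 at days 4, 8 and 12. Its day 0 site lay inside the gene Hsd11b2, those of days 4 and 8 inside Atp6v0d1 itself and that of day 12 inside Agrp. Atp6v0d2, the V0 subunit of osteoclasts and macrophages, had no day 0 site, and a site inside the gene (chromosome 4, 19894765 to 19894781) was called only at days 4, 8 and 12, at 33.8, 43.5 and 65.3. Atp6v1b2 had at most 2 sites and a best score of 22.0, from a day 12 site inside Slc18a1. In all, 17 of the 31 best day 12 sites lay inside the member's own body, 14 lay outside it, and 7 of these were nearer to another protein-coding gene: those of Cd68, Ctsa, Ctsk, Gla, Atp6v0c, Atp6v0d1 and Atp6v1b2. When a summit counted only for its nearest gene, 7 of 31 genes had a site at day 0, against 28.0% of all genes and 28.3% at these lengths. At day 12 the count was then 29 of 31, against 72% and 78.4%.

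Over the whole course, 19 of 31 genes gained a call between day 0 and day 12, against 42.1% of all genes and 46.4% at these lengths. Those 19 were 2 membrane proteins, 8 cathepsins, 4 glycosidases or lipase, 2 cofactors and 3 pump subunits. With lists of 8043 sites the count was 8, against 14.8% of all genes and 17.4% at these lengths. Days 4, 8 and 12 all gave a site at 29 of 31 genes, against 57.1% of all genes and 62.4% at these lengths, the exceptions being Ctsl and Ctsz. In the 6 libraries other than day 0, 16 of 31 genes always had a site, against 29.2% and 32.4%. In all 7 libraries 8 did (Lamp1, Laptm5, Ctsd, Gla, Gusb, Grn, Tfeb and Atp6v1a), against 17.5% and 19.1%. Having a site in all 7 lists did not mean 1 recurring position, since only Laptm5, Gusb and Gla had a site that was itself called 7 times. The only day 0 sites of Ctsd, Grn and Atp6v1a lay inside the genes Ifitm10, Fam171a2 and Naa50, and that of Gla lay 82 bases from Rpl36a. When a summit counted only for its nearest gene, 4 members had a site in all 7 libraries, against 10.3% of all genes and 10.5% at these lengths.

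Merging summits within 100 bp across libraries gave 472 sites in the members' windows, of which 322 were called in 1 library. Of these, 162 were called in Day 12- 12 alone and 83 in day 12 alone. Of the 200 sites called at day 12, 59 (29.5%, 23.3 to 36.3) were also called at day 4 and 65 (32.5%, 26.1 to 39.5) at day 8, against 23.9 and 24.4% of day 12 sites in the windows of all genes. At day 0, 7 of them were called (3.5%), against 4.19%. Under the titles Day 12- 4, Day 12- 8 and Day 12- 12, 21, 18 and 82 were called (10.5, 9.0 and 41.0%), against 8.94, 10.5 and 47.7%. Apart from day 8, the interval of each share held its background.

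**Figure D4:**
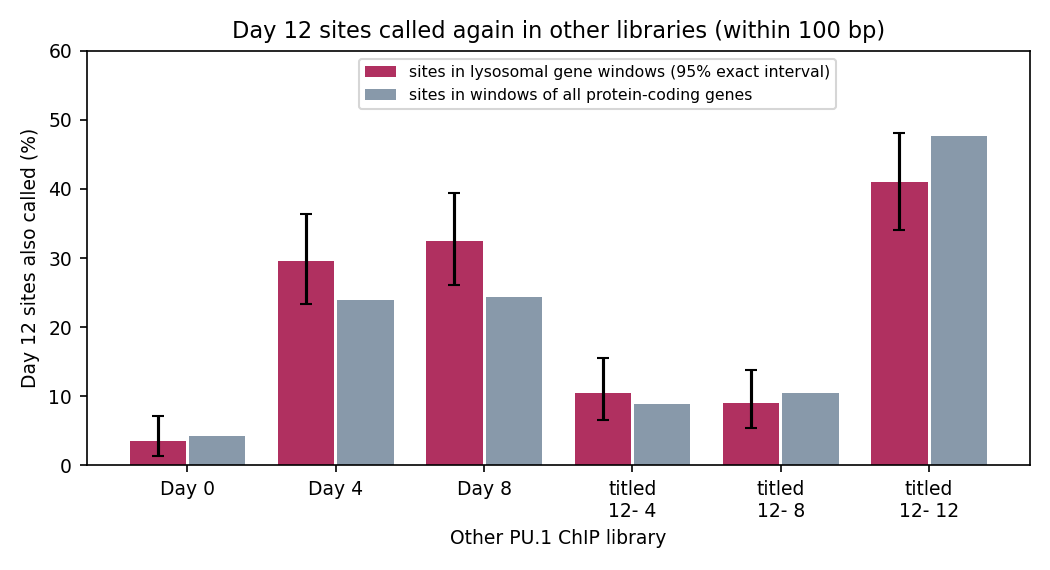
Percent of day 12 sites that were also called within 100 bp in each other library, for the 200 sites in lysosomal gene windows (red, exact 95% interval) and the 68852 sites in windows of all protein-coding genes (grey). Red exceeds grey for days 4 and 8 (29.5 and 32.5% against 23.9 and 24.4%), and the grey bar lies within the red interval at day 0, day 4 and in all 3 libraries titled knockdown.

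The 15 day 0 sites of these genes lay mostly at gene starts, with 11 of 15 (73.3%, 44.9 to 92.2) within 1 kb of an annotated start of any protein-coding gene, against 60.3% of day 0 sites in all gene windows. Of the 15, 11 (73.3%, 44.9 to 92.2) were also called in the library titled Day 12- 8, against 49.6% of day 0 sites in all windows. At day 12, 7 were called (46.7%, 21.3 to 73.4), against 39.3%. Each of these intervals contained its background. The day 0 sites of Lamp1, Npc1, Ctsd, Atp6v0d1 and Atp6v1a were called in Day 12- 8 and not at day 12. At day 4, 24.6% of the 126 summits in member windows lay within 1 kb of a start, against 12.7% in all windows, and at day 12, 22.5% of 200 did, against 16.1%.

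A further 72 genes of lysosomal function were counted the same way. They comprised other pump subunits, hydrolases, membrane proteins, enzyme sorting factors and the signalling complexes of the lysosome surface. At day 0, 32 of 72 had a site, against 39.5% at their lengths, and at days 4, 8 and 12 the counts were 67, 64 and 70, against 74.4, 66.5 and 82.6%. In Day 12- 4, Day 12- 8 and Day 12- 12 they were 41, 63 and 68, against 37.8, 66.4 and 83.5%. Cut to 8043 sites per list, the counts for days 4, 8 and 12 were 36, 35 and 47 of 72, against 27.4, 31.7 and 38.6%. Under the knockdown titles they were then 37, 46 and 39 (51.4, 63.9 and 54.2%), against 33.7, 41.4 and 34.0%. With these lists the 72 genes lay further above their background than the 31 members at days 0 and 12. At day 12 the shares were 65.3% against 38.6% for the 72 and 51.6% against 40.2% for the members. The 72 also lay further above in Day 12- 4 and Day 12- 8. In Day 12- 12 the distances were close, and at days 4 and 8 the members lay further above.

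Among the other pump subunits the highest day 12 scores were 445 at Atp6v0a1 and 440.5 at Atp6v1d, and Atp6v0b had a site in all 7 libraries, from 127 at day 0 to 403 at day 12. The Atp6v0a1 site also lay in the window of Naglu, a heparan-degrading enzyme, so the score of 445 counted for both. Among the hydrolases, Smpd1, acid sphingomyelinase, scored 608 at day 12 and 26.2 at day 0. Laptm4b and Scarb2, the receptor that carries glucocerebrosidase to the lysosome, led the membrane proteins at 454 and 446, from sites 8718 and 6082 bases outside the genes. Lamtor2, a subunit of the Ragulator complex, and Rptor, of the mTOR complex, led the regulators at 578 (4472 bases outside the gene) and 396, and M6pr, a mannose 6-phosphate receptor, and Sort1 led the sorting factors at 409.9 and 240.4. Tfe3 and Mitf, relatives of Tfeb, lacked a day 0 site, and their day 12 scores were 114 and 29.95. Ids and Tfec, named after their values were seen, were the 2 of 72 with no day 12 site, and none of the 72 lacked a site in every library.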

How the data were processed

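PU.1 ChIP-seq peaks of 7 libraries were used, 1 per title, out of 8 labelled samples. Per the submitters' processing notes the tool was MACS2 and the build mm10. Each deposited file lists 1 summit per called peak with a score, which the authors left undescribed. It was taken to be a −log10 q-value from the authors' peak caller, since the lowest score in any file, 1.30104, lies just above 1.30103, the value for q = 0.05. Aligner, control library, filters, pooling and depth are not given in the sources used here, so precision per library is unknown and intervals cover counting error only.

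Genes, promoter windows and strand came from RefSeq tables for GRCm38.p6. Without a genome, sequence elsewhere was not used here. Summits were assigned in Python 3.11.15 with pandas 2.3.3, numpy 2.4.6 and, for intervals, scipy 1.17.1, plotted with matplotlib 3.10.9, and the counting was tested on simulated data. Length-standardised shares are means over the members' length deciles of the share of all protein-coding genes with a site, a fixed average and not a test. Intervals are exact (Clopper-Pearson, 95%).

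The members and gene lists were chosen with earlier results of these data known. Members given in full were the 2 per role with the highest day 12 score, those called in all 7 libraries and those whose best day 12 site was nearer another gene, and of the other lysosomal genes the 2 highest per list. Alternatives were gene bodies alone, 50 kb flanks, a score of at least 20, lists of 8043 sites, nearest gene only, 20 length bins, merging at 50 or 500 bp, and leaving out the library titled Day 12- 12.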

Additional observations from a re-analysis of the deposited data

How the results depend on the processing

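Of 109 values computed under alternatives, 70 stayed within 1.5 times the reported count or within the counting interval of the reported share, 36 moved further and 3 changed sign. The cause was not tested. Lysosomal genes lay above the length-standardised share at days 4, 8 and 12 and in the libraries titled Day 12- 4 and Day 12- 12 under every alternative run, but not at day 0 or in Day 12- 8. With gene bodies alone, 7 genes had a day 0 site (-3.36 points), the day 4 difference was 34.2 points, and 4 genes had a site in all 7 libraries. With 50 kb flanks, 20 genes had a day 0 site, the differences at days 4 and 12 were 10.9 and 8.23 points, 11 genes had a site at day 12 but not day 0, and 18 had one in all 7 libraries. With scores of at least 20, the counts were 4 at day 0 and 8, 4 and 17 in Day 12- 4, Day 12- 8 and Day 12- 12, the differences at days 4 and 12 were 34.5 and 26.7 points, that in Day 12- 8 was -5.32 points, and 2 genes had a site in all 7 libraries. Merged sites then numbered 107, and the day 12 sites also called were 2 at day 0, 24 at day 4, 24 at day 8 and 8, 4 and 19 in the libraries titled knockdown. With equal-length lists, 16 genes had a site at each of days 4, 8 and 12, 14 in Day 12- 8 and 17 in Day 12- 12, 8 had one at day 12 but not day 0, and 4 in all 7. By nearest gene only, 7 had a day 0 site (-5.74 points) and 4 a site in all 7. Merging at 50 bp left 7 day 12 sites also called in Day 12- 8 and 53 in Day 12- 12, and merging at 500 bp gave 11 at day 0, 32 in Day 12- 8 and 125 in Day 12- 12. Without the library titled Day 12- 12, 8 genes had a site in all of the 6 others. No paired analysis was possible because each title had 1 library. Depth was unknown, which limits what a missing call shows.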
